A study of Homo sapiens with 8 samples.

Results

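The AP-1 transcription factors were described here through 9 genes: the JUN subfamily (JUN, JUNB and JUND), the FOS subfamily (FOS, FOSB, FOSL1 and FOSL2), and the related factors ATF3 and BATF3. Members were taken by gene symbol, as the probe sets of the array that carry that symbol and no other, and the highest-mean probe set stood for a gene. Each of the 9 genes had exactly 1 such probe set, and all 9 were among the 18417 genes measured. The samples were A2780, a human ovarian carcinoma cell line, and A2780CP20, a subline known for cisplatin resistance, both untreated. A2780 was also given temsirolimus, a relative of rapamycin that blocks mTORC1 signalling, for 24 h or 48 h. There were 2 Affymetrix Gene 1.0 ST arrays in each of these 4 groups, and all cells were grown in RPMI medium with fetal bovine serum. The drug was dissolved in DMSO, no dose is given in the labels, and the labels do not say whether the untreated cells received DMSO. By the labels, every group is cultured cells of A2780 or its subline, but the arrays labelled 24 h differ so far from the others in marker genes that their label is not taken as settled here.

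AP-1 is a dimer of proteins with a basic region that grips DNA and a leucine zipper that holds the partners together. JUN proteins pair with each other or, more stably, with FOS proteins, whereas FOS proteins need a partner of another family. FOS, FOSB, JUN, JUNB and ATF3 are early response genes, switched on within minutes by growth factors, serum or stress through MAP kinases, and their mRNAs decay quickly. JUN drives growth and cooperates with FOS, while JUND is made more steadily and can restrain growth. AP-1 binds the motif TGACTCA and, with ATF partners, TGACGTCA, and it induces matrix proteases, cytokines and growth factor ligands.

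All values are log2 intensities of 1 probe set on 1 array. A difference is that of group means on this scale, ± its standard error from limma, with n = 2 arrays in every group. A gene is said to have risen or fallen where limma's adjusted p was under 0.05 over all 18417 genes. The lower quartile of probe sets lay between 5.03 and 5.13 on the 8 arrays. Levels of different genes are not compared, since probes differ in brightness.

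Both arrays labelled temsirolimus 24 h lay far from the remaining 6. Across genes, which are no replicates, their correlation with any array of another group was 0.950 to 0.952, and that between 48 h and untreated A2780 arrays 0.994 to 0.996. The A2780CP20 arrays correlated at 0.982 to 0.989 with untreated A2780 and at 0.979 to 0.989 with 48 h. Of 9 mesenchymal markers 6 fell on the arrays labelled 24 h (15.3% of all genes fell). SNAI2, a transcription factor of mesenchymal cells, was 63.1-fold lower, at 5.39 and 5.83 against 11.62 and 11.56 in untreated A2780 and 12.14 and 12.27 at 48 h. LUM, which encodes lumican, was 42.2-fold lower and the collagen gene COL1A2 41.9-fold lower. SNAI2, LUM and COL1A2 were the largest falls among those called, and their changes exceed that of every AP-1 gene. The list median was -1.41 (0.01 for all genes), and the rest of the 9 markers did not pass in either direction. The summed level of the list (log2 of the summed intensities) was 13.15 to 13.16 at 24 h against 14.41 to 14.42 in untreated A2780. Of 8 epithelial markers 2 rose (14.9% of all genes rose), KRT18 (7.65-fold, uncertain because of pseudogenes) and EPCAM (4.50-fold), with a list median of 0.13. The list's summed level was 11.10 to 11.14 against 9.55 to 9.58. Bright genes weigh most in such a sum, and KRT18 alone measured 10.55 and 10.48 at 24 h. CDH1, a defining epithelial gene, was at a mean of 5.37 at 24 h and 5.325 in untreated A2780. Of 4 blood cell markers 1 rose, PTPRC (0.52, limma adjusted p = 0.00447), at 4.48 and 4.54 against 4.08 and 3.90, all under the lower quartile, and the list's summed level was 7.13 to 7.16 against 6.86 to 7.17. That of 4 endothelial markers was 7.21 to 7.41 against 7.34 to 7.39. The part of these differences in the results on AP-1 genes at 24 h was not tested. Whether these 2 arrays hold the cells and treatment that their labels name was not tested either, so every value given for 24 h is that of the arrays so labelled.

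JUN, whose product is the central subunit of AP-1, rose 4.24-fold on the arrays labelled 24 h. The window around its start site is shown because JUN protein is known to act on its own promoter through a variant of the AP-1 motif, TGACATCA. Windows of JUND and ATF3, the other members that passed the test at 24 h, are shown beside it. Each runs from 250 bases before the start site to 50 after it, 5′ to 3′ on the gene's strand, from RefSeq, build GRCh38.p14. Capitals mark matches on either strand to TGACTCA, TGACGTCA, TGACATCA, the CArG box or TATAAA. Genome positions are chr1:58783998-58784297 on the minus strand for JUN, chr19:18281573-18281872 on the minus strand for JUND, and chr1:212565157-212565456 on the plus strand for ATF3.
JUN: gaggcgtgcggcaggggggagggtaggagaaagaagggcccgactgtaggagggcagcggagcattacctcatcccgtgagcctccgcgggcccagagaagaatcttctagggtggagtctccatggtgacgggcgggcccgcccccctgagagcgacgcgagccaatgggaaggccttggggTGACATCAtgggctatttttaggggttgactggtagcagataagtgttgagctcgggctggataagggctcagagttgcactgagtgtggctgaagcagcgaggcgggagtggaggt
JUND: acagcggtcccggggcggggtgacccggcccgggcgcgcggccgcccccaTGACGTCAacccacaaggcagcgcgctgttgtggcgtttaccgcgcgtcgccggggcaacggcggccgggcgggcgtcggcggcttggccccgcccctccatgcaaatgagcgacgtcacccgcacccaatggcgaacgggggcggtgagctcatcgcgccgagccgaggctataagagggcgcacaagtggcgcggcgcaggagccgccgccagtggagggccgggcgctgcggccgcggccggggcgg
ATF3: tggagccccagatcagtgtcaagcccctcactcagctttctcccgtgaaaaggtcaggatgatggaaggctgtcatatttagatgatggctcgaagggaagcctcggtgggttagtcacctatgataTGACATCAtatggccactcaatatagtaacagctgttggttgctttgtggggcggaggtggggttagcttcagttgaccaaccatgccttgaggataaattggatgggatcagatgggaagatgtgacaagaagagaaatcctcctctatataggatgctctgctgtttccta

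In the JUN window TGACATCA began 67 bases before the start site, and in the ATF3 window shown it began 123 bases before. The other ATF3 window, which is not shown, held no TGACATCA. In the JUND window TGACGTCA, the cyclic AMP response element, began 200 bases before the start site. RefSeq windows were found for 7 of the 9 members (JUN, JUNB, JUND, FOS, FOSB, FOSL2 and ATF3), in 8 windows since ATF3 had a pair of start sites. FOSL1 and BATF3 had none in the table. Of all 35116 windows of 300 bases, 2.61% held TGACATCA, 1.85% TGACGTCA, 4.95% TGACTCA, 1.29% a CArG box and 11.5% TATAAA, and each window shown held 1 match. TGACTCA was found in the FOSL2 window only, TATAAA in those of JUNB, FOS, FOSB and the second of ATF3, and a CArG box in none. TATAAA began 31, 33 and 30 bases before the start site in JUNB, FOS and FOSB, but 230 bases before it in the second ATF3 window. These matches describe letters, not bound sites.

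Counted over the members, 3 of 9 passed at 24 h against untreated A2780, JUN and ATF3 higher and JUND lower, where 30.1% of all genes passed (14.9% higher and 15.3% lower). The median of the 9 differences was 0.24, and that of all genes 0.01. In A2780CP20 against A2780 limma called 0 of 9, where 18.4% of all genes passed (6.37% higher and 12.0% lower), and 3 of the 9 (FOS, FOSL1 and ATF3) had an unadjusted p under 0.05. At 48 h against untreated A2780 limma called 0 of 9, where 0.179% of all genes passed (0.163% higher and 0.0163% lower), and 2 of the 9 (JUND and ATF3) had an unadjusted p under 0.05. Between 48 h and 24 h, 3 of 9 passed, JUND higher and JUN and FOSB lower, where 31.0% of all genes passed (15.2% higher and 15.7% lower). Against A2780CP20, 3 of 9 passed at 24 h (JUN and FOS higher, JUND lower), where 33.7% of all genes did (17.8% higher and 15.9% lower). At 48 h limma called 0 of 9 against A2780CP20, where 22.7% of all genes passed (13.5% higher and 9.16% lower), and 2 of the 9 (FOS and FOSL1) had an unadjusted p under 0.05. The share of members called at 24 h was thus near that of all genes and is no result about the members. The median of all genes was 0.03 in A2780CP20 and -0.03 at 48 h against untreated A2780, beside 0.12 and -0.015 for the 9 members. These comparisons share arrays, so their values are set side by side only. Without both arrays labelled 24 h in the fit, the counts for A2780CP20 and for 48 h were again 0.

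**Figure D1:**
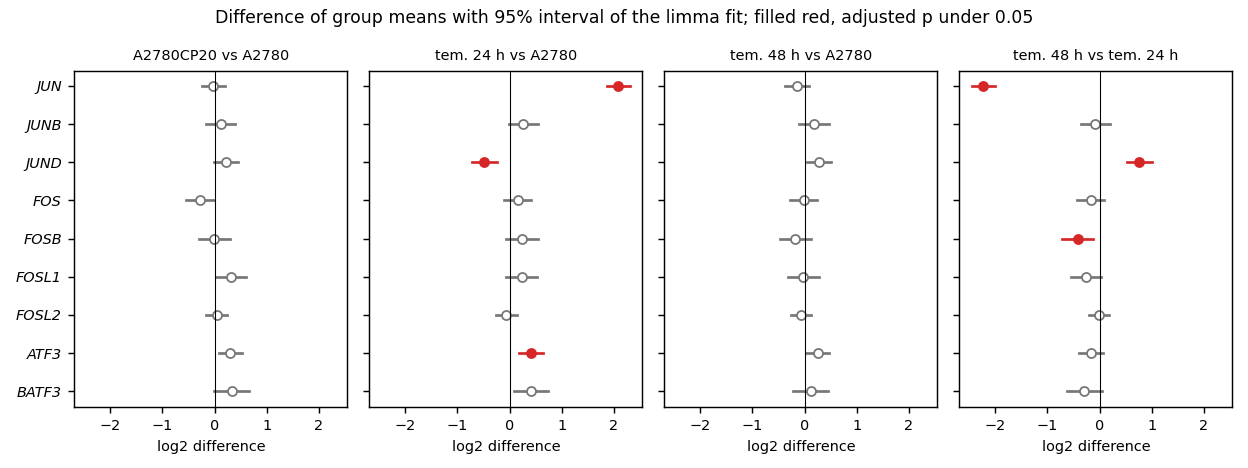
Differences of group means (log2, horizontal axis) for the 9 genes in 4 comparisons, with lines for the 95% interval of the limma fit; filled red points had an adjusted p under 0.05 and open points did not. JUN stands at 2.09 at 24 h against A2780 and -2.23 at 48 h against 24 h, while every interval for A2780CP20 and 48 h against A2780 lies within 1 log2 unit of 0.

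JUN measured 5.97 and 5.78 in untreated A2780, 5.87 and 5.83 in A2780CP20, then 8.01 and 7.91 at 24 h and 5.76 and 5.71 at 48 h. Both arrays labelled 24 h lay above all 6 others, and those 6 lay between 5.71 and 5.97. The rise at 24 h was 2.09 ± 0.10 (limma adjusted p = 1.05e-06), a larger absolute change than that of 98.1% of all genes. At 48 h JUN stood 2.23 lower than at 24 h (-2.23 ± 0.10, limma adjusted p = 7.07e-07). It measured -0.14 ± 0.10 against untreated A2780 (95% interval -0.37 to 0.09, limma adjusted p = 0.657). A2780CP20 and A2780 differed by -0.03 ± 0.10 (95% interval -0.25 to 0.20, limma adjusted p = 0.885). In the order of levels 24 h came first and differed from each other group, and no other pair of groups differed beyond the threshold.

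**Figure D2:**
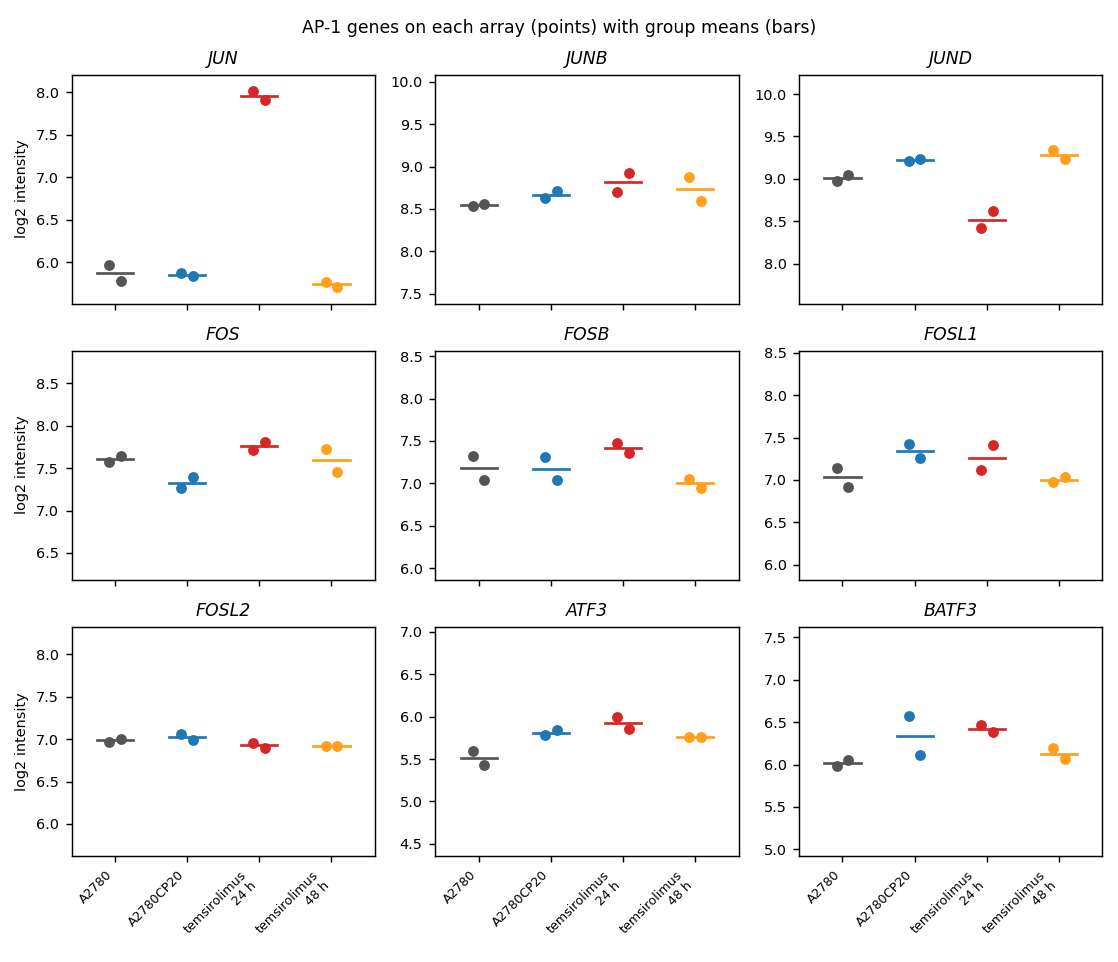
Log2 intensity of the 9 AP-1 genes (1 panel each) on every array, with 2 points and a bar for the mean in each of the 4 groups; each vertical axis spans the same number of log2 units, so panels compare in size of change but not in level. JUN sits at 8.01 and 7.91 on the arrays labelled temsirolimus 24 h and between 5.71 and 5.97 elsewhere, and JUND is lowest on the 24 h arrays.

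JUND, the steadily made member of the subfamily, moved the other way. It measured 8.97 and 9.04 in untreated A2780, 9.21 and 9.23 in A2780CP20, then 8.42 and 8.62 at 24 h and 9.34 and 9.23 at 48 h. The 24 h arrays lay below all others, and the groups did not overlap except that A2780CP20 and 48 h shared the value 9.23. JUND fell by 0.49 on the log2 scale at 24 h (1.40-fold lower, limma adjusted p = 0.00669), and it was 0.77 ± 0.10 higher at 48 h than at 24 h (limma adjusted p = 0.000555). Without temsirolimus 24 h replicate 1 the first of these was -0.39 and no longer passed (limma adjusted p = 0.0675). Against untreated A2780 it measured 0.28 ± 0.10 at 48 h (95% interval 0.05 to 0.51, limma adjusted p = 0.371) and 0.22 ± 0.10 in A2780CP20 (95% interval -0.02 to 0.45, limma adjusted p = 0.178).

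JUNB, an early response member that can oppose JUN, showed no difference past the threshold between any pair of groups. It measured 8.54 and 8.56 in untreated A2780, 8.63 and 8.71 in A2780CP20, then 8.70 and 8.93 at 24 h and 8.88 and 8.59 at 48 h. The treated groups overlapped each other and the 24 h mean was 0.27 ± 0.12 above that of untreated A2780 (95% interval -0.02 to 0.55, limma adjusted p = 0.152). JUN, JUND and JUNB therefore differed in direction or size on the arrays labelled 24 h.

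None of the 4 FOS genes passed the test against untreated A2780 in any comparison. FOS measured 7.57 and 7.64 in untreated A2780, 7.26 and 7.39 in A2780CP20, then 7.71 and 7.81 at 24 h and 7.72 and 7.46 at 48 h. The 2 A2780CP20 arrays were the lowest of the 8. Their distance from untreated A2780 was -0.28 ± 0.11 (95% interval -0.54 to -0.02, limma adjusted p = 0.122), and the 24 h arrays stood 0.44 ± 0.11 above A2780CP20 (limma adjusted p = 0.0174). That call ended without A2780CP20 replicate 1 (limma adjusted p = 0.0634), without temsirolimus 24 h replicate 1 (limma adjusted p = 0.0536) and without temsirolimus 24 h replicate 2 (limma adjusted p = 0.11). Between neighbours in the order of FOS levels no difference passed.

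FOSB, a close relative of FOS, measured 7.32 and 7.04 in untreated A2780, 7.31 and 7.04 in A2780CP20, then 7.48 and 7.36 at 24 h and 7.05 and 6.95 at 48 h. The 24 h arrays were the highest of the 8, the 48 h arrays overlapped the untreated ones, and only 48 h and 24 h differed past the threshold (-0.42 ± 0.13, limma adjusted p = 0.0399). Leaving out any of the 4 arrays labelled 24 h or 48 h ended that call, with limma adjusted p of 0.192 and 0.089 without temsirolimus 24 h replicates 1 and 2, and 0.0994 and 0.189 without temsirolimus 48 h replicates 1 and 2.

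FOSL1, which encodes FRA-1, a FOS protein linked to invasion, lay between 6.92 and 7.43 on the 8 arrays. Its highest group mean was that of A2780CP20, 0.32 ± 0.13 above untreated A2780 (95% interval 0.02 to 0.61, limma adjusted p = 0.127), and no pair of groups differed past the threshold. FOSL2, which encodes FRA-2, spanned only 0.17 over the 8 arrays, from 6.89 to 7.06, the narrowest range of the 9 genes. Its differences from untreated A2780 were 0.04 ± 0.09 in A2780CP20, -0.06 ± 0.09 at 24 h and -0.07 ± 0.09 at 48 h, with 95% intervals that stayed between -0.26 and 0.24.

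ATF3, a stress-induced factor that forms dimers with JUN proteins, measured 5.59 and 5.43 in untreated A2780, 5.78 and 5.84 in A2780CP20, then 5.99 and 5.86 at 24 h and 5.76 and 5.76 at 48 h. Untreated A2780 held the lowest values, below all 6 other arrays. Only the rise at 24 h passed (0.42 ± 0.10, 1.33-fold, limma adjusted p = 0.012). The distances in A2780CP20 (0.30 ± 0.10, limma adjusted p = 0.0669) and at 48 h (0.25 ± 0.10, limma adjusted p = 0.41) did not. The 24 h call ended without A2780 untreated replicate 2 (limma adjusted p = 0.0896) and without temsirolimus 24 h replicate 1 (limma adjusted p = 0.102).

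BATF3, a small AP-1 factor best known from dendritic cells, measured 5.98 and 6.05 in untreated A2780, 6.57 and 6.11 in A2780CP20, then 6.47 and 6.38 at 24 h and 6.20 and 6.06 at 48 h. The A2780CP20 arrays were 0.46 apart, the widest gap within a group for any member. BATF3 at 24 h was 0.41 ± 0.15 above untreated A2780 (limma adjusted p = 0.0661), close in size to ATF3 but with a larger error. Without A2780CP20 replicate 1 or without A2780CP20 replicate 2 the 24 h difference passed (limma adjusted p = 0.00804 for each). Without A2780CP20 replicate 2 the A2780CP20 difference from untreated A2780 was 0.56 and passed too (limma adjusted p = 0.00963), as did 48 h against A2780CP20 (-0.44, limma adjusted p = 0.0179). Between 48 h and 24 h the difference of -0.295 ± 0.15 (limma adjusted p = 0.167) passed without either A2780CP20 array (limma adjusted p = 0.0293 for each). With all 8 arrays, no pair of the 4 groups differed past the threshold in FOSL1, FOSL2, JUNB or BATF3.

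Other genes of the pathway were taken from lists in which 10 of 12 further leucine zipper partners, 12 of 15 upstream kinases and factors, 7 of 7 ubiquitin ligase genes, 18 of 20 other early response genes and 25 of 30 responsive genes were measured. Among the partners, 3 of 10 fell at 24 h by limma, where 15.3% of all genes fell, with a median of -0.17. None of the 10 rose, with 0 also at an unadjusted p under 0.05. ATF2, a partner of JUN that binds TGACGTCA, fell by 0.94 on the log2 scale (limma adjusted p = 0.00288), from 11.20 and 11.22 to 10.26 and 10.29. JDP2, a repressor that pairs with JUN proteins, fell by 0.67, and MAFG, a small MAF protein, by 0.62. Against untreated A2780, limma called 0 of the 10 partners in A2780CP20 (median 0.10), where 18.4% of all genes passed, with 2 at an unadjusted p under 0.05. At 48 h it called 0 of the 10 (median -0.11), where only 0.179% of all genes passed, with 1 at an unadjusted p under 0.05. Without A2780CP20 replicate 2, 1 partner was higher and 1 lower in A2780CP20.

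Of the 12 upstream genes, 2 rose and 2 fell at 24 h, with a median of 0.04, near the shares of all genes (14.9% higher and 15.3% lower). None was called lower without A2780 untreated replicate 1 or without temsirolimus 24 h replicate 2, and 1 without A2780 untreated replicate 2 or either 48 h array. The number higher was 1 without A2780 untreated replicate 1 or temsirolimus 24 h replicate 1. MAPK9, which encodes the JUN kinase JNK2, rose by 0.79 ± 0.09 (limma adjusted p = 0.000246), from 10.19 and 10.28 to 10.99 and 11.05. At 48 h it measured 10.76 and 10.82, a difference of 0.56 ± 0.09 that did not pass (limma adjusted p = 0.0783). MAPK10 (JNK3) and ELK3, an ETS factor, fell by 0.54 and 0.73 at 24 h. The MAPK10 values, 5.18 and 4.87 against 5.70 and 5.43 in untreated A2780, lay near the lower quartile of the arrays. MAPK8, which encodes JNK1, differed by -0.005 ± 0.10 at 24 h and fell by 0.46 in A2780CP20. The other that rose at 24 h, named after its values were seen, was the serum response factor gene SRF (0.47). In A2780CP20 3 of the 12 rose (6.37% of all genes did), the kinase gene MAP2K2 (0.53 ± 0.13), ELK1 (0.41 ± 0.11) and SRF (0.36 ± 0.10, named after its values were seen), and MAPK8 was the 1 that fell, with a list median of 0.12. Without either untreated A2780 array, or with only the 2 groups fitted, limma called 0 of the 12 in either direction, and without A2780CP20 replicate 2 or either 48 h array 1 was higher. Limma called 0 of the 12 at 48 h, where only 0.179% of all genes passed, with 2 at an unadjusted p under 0.05 and a median of 0.07.

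Among the 7 genes of ubiquitin ligases that mark JUN protein for destruction, 4 fell and none rose at 24 h (limma, 15.3% of all genes fell), with a median of -0.44. DET1 fell by 0.92 (limma adjusted p = 0.000159), from 7.96 and 8.02 to 7.05 and 7.09. CUL4A fell by 0.92 and FBXW7 by 0.71, and COP1, named after its values were seen, measured 9.11 and 9.25 against 9.61 and 9.62. CUL4A lies on chromosome 13, whose 317 measured genes had a median of -0.11 in this comparison (0.01 for all genes). Whether its location bears on its fall was not tested. In A2780CP20 3 of the 7 fell, DET1 by 0.57, FBXW7 by 0.48 and COP1 by 0.47, where 12.0% of all genes fell. The list median there was -0.17, and 1 of the 7 was lower without A2780 untreated replicate 1 and 0 without A2780 untreated replicate 2. At 48 h limma called 0 of the 7 against untreated A2780, where only 0.179% of all genes passed, with 0 at an unadjusted p under 0.05.

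Other early response genes did not move as a block with JUN. At 24 h 4 of 18 rose and 3 fell, with a median of 0.00, where 14.9% of all genes rose and 15.3% fell. EGR1, a zinc finger factor induced by the same MAP kinases, rose by 1.68 ± 0.13 (limma adjusted p = 2e-05), from 8.44 and 8.35 to 10.01 and 10.13. MYC fell by 1.42 and NR4A2, a nuclear receptor, by 0.95. The other 4 called, named after their values were seen, were KLF6 (0.52), EGR3 (0.43) and NR4A3 (0.43), which rose, and CCN2 (-0.595), which fell. NR4A2 was also the only 1 of the 18 that passed at 48 h, where 0.179% of all genes passed. It rose there by 0.83 ± 0.10 (limma adjusted p = 0.0228), to 7.80 on both arrays from 7.02 and 6.92. That call ended without any 1 of the arrays labelled A2780 untreated, 24 h or 48 h. In A2780CP20 CCN1 fell by 0.62 and KLF6 by 0.37, and NR4A1 rose by 0.45 ± 0.11, the 3 of 18 that passed, where 6.37% of all genes rose and 12.0% fell, with a list median of 0.125. Without either untreated A2780 array none of the 18 passed there. Without A2780CP20 replicate 1 or either 24 h array none rose and 1 fell, without either 48 h array 1 fell, and without A2780CP20 replicate 2 none rose and 4 fell. At 24 h the number that rose was 2 without A2780 untreated replicate 2.

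Genes known to respond to AP-1, the longest of these 5 lists, held the largest single changes. The lists were chosen with earlier results of these data known, and AP-1 activity was not measured. At 24 h 8 of 25 rose and 3 fell, with a median of 0.10, where 14.9% of all genes rose and 15.3% fell. MMP3, the matrix protease stromelysin, rose by 4.80 ± 0.11 (27.8-fold, limma adjusted p = 1.9e-08), from 7.94 and 7.75 to 12.64 on both arrays. MMP1, the interstitial collagenase, a classic AP-1 target, rose by 3.41 ± 0.13 (10.6-fold, limma adjusted p = 2.62e-07), from 6.35 and 5.99 to 9.55 and 9.61. TIMP1, an inhibitor of these proteases, rose by 2.11 ± 0.12, from 11.08 and 11.11 to 13.21 and 13.20. The other 5 that rose, named after their values were seen, were LIF (2.03 ± 0.13), MMP10 (1.995 ± 0.09), the integrin gene ITGA2 (1.63 ± 0.12), HBEGF (1.08 ± 0.17) and MMP13 (0.44 ± 0.10), whose group means of 3.915 and 4.35 are both under the lower quartile of the arrays.

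The responsive genes that fell at 24 h, likewise named after their values were seen, were the cyclin D1 gene CCND1 (-0.80 ± 0.09), PLAU (-0.69 ± 0.13) and SPP1 (-0.64 ± 0.12). The cytokine genes IL6 (-0.03 ± 0.11) and IL11 (-0.05 ± 0.10) did not pass, nor did MMP9 (0.15 ± 0.12) or VEGFA (0.05 ± 0.09). At 48 h limma called 0 of the 25 against untreated A2780, where only 0.179% of all genes passed, with 4 at an unadjusted p under 0.05. MMP3 measured 7.98 and 7.86 there. In A2780CP20 HMGA1, whose probes are uncertain because of pseudogenes, rose by 1.01 ± 0.14, and TIMP1 (-0.455 ± 0.12), GJA1 (-0.41 ± 0.10) and MMP10 (-0.37 ± 0.09, named after its values were seen) fell, with a list median of 0.12, where 6.37% of all genes rose and 12.0% fell. Without either untreated A2780 array none of the 25 fell there, only 1 fell without A2780CP20 replicate 1, and 2 rose without A2780 untreated replicate 1 or A2780CP20 replicate 2. MMP1, MMP3 and MMP10 are related in sequence, and shared hybridization between their probes was not tested.

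**Figure D3:**
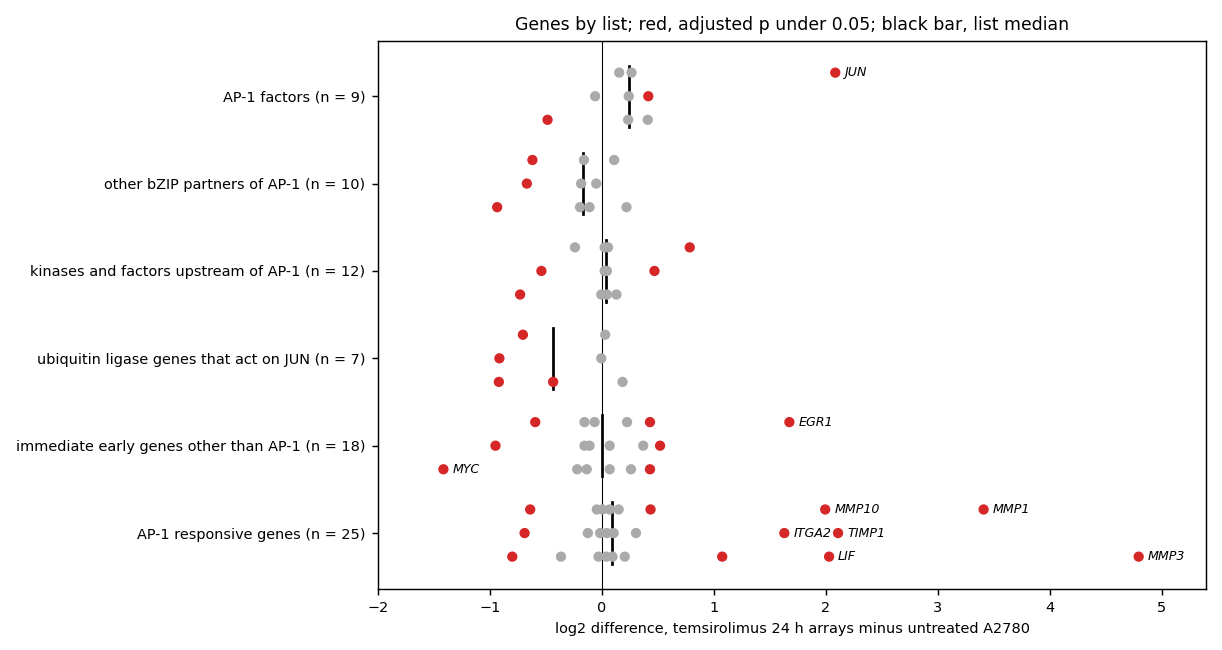
Log2 difference between the arrays labelled temsirolimus 24 h and untreated A2780 (horizontal axis) for each measured gene of the AP-1 factors and of 5 lists, 1 row per list; red points had a limma adjusted p under 0.05, black bars are list medians, and vertical position within a row only separates points. JUN at 2.09, EGR1 at 1.68 and MMP3 at 4.80 stand to the right of their rows, and 4 of 7 ubiquitin ligase genes lie left of 0 in red.

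The genes whose pattern over the 8 arrays came closest to JUN were GALNT14, a glycosyltransferase gene, GSAP and PRELID2. Likeness was the root mean square difference over the 8 arrays after each gene was centred on its untreated A2780 mean, and it was 0.075, 0.099 and 0.107 log2 units for these genes. GALNT14 measured 6.31 and 6.30 in untreated A2780, 8.38 and 8.22 at 24 h, and 6.22 and 6.08 at 48 h. Its differences from untreated A2780 were 1.995 at 24 h and -0.16 at 48 h, beside 2.09 and -0.14 for JUN. JUN was the only member with a difference of at least 1 from untreated A2780, so no such search was made for the others.

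**Figure D4:**
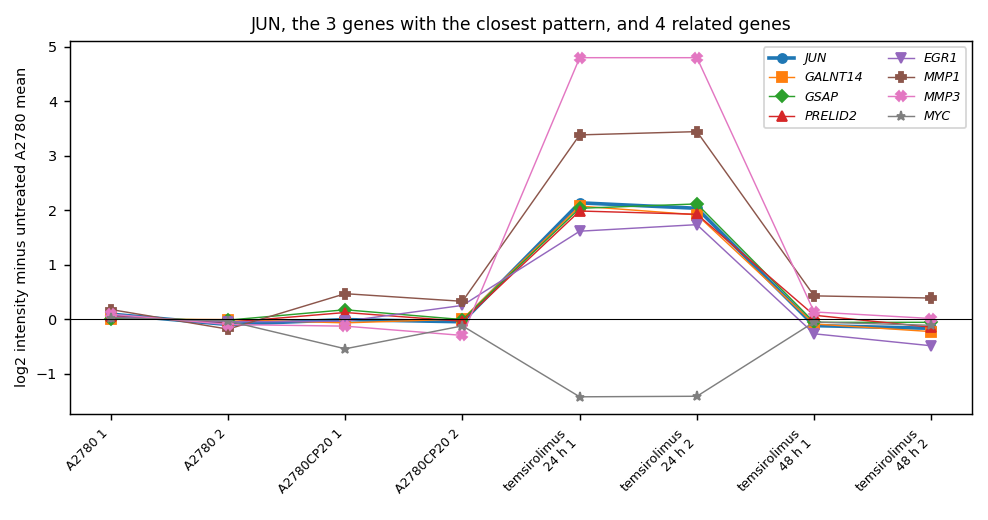
Log2 intensity minus the untreated A2780 mean (vertical axis) on each of the 8 arrays for JUN, the 3 genes closest to it in pattern, and EGR1, MMP1, MMP3 and MYC; lines only join the points of a gene. All but MYC rise on the 2 arrays labelled temsirolimus 24 h, MMP3 by 4.80 and JUN by 2.09, and MYC falls there by 1.42. The 3 genes were chosen for their likeness to JUN on these arrays, and EGR1, MMP1, MMP3 and MYC from genes called at 24 h. Their changes there are thus no separate result.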

How the data were processed

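Gene expression was measured on 8 arrays, 2 in each of 4 groups taken from the sample titles. The authors deposited 1 value per probe set and array, read here as log2 intensity from its range (1.80 to 14.99) and the near-equal medians of the arrays. Per the submitters' processing notes the software was Partek, while its background correction, normalization and probe summary were not stated. Of 33297 probe sets, 19460 had 1 gene symbol in the platform annotation, 1754 several and 12083 were unnamed here. Genes with several probe sets were represented by the one with the highest mean, which gave 18417 genes, 18389 of them matched to RefSeq.

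Groups were compared with limma 3.58.1 (R 4.3.3), using 1 coefficient per group over all 8 arrays, empirical Bayes moderation (4 residual and 4.48 prior degrees of freedom). Tests were two-sided, and p-values were adjusted by Benjamini and Hochberg's method across all genes. The script was tested on simulated data. The labels do not state whether replicates came from separate cultures. The p-values therefore measure the spread between these arrays, which may be technical, and their number limits the precision. The fit gave each gene 1 spread shared by all groups, but the A2780CP20 arrays differed more from each other. The standard deviation across genes of the difference between arrays was 0.287 in A2780CP20 and 0.166 to 0.181 in the other groups. With only the 2 groups compared in the fit, 1022 genes passed in A2780CP20 (3388 as reported) and 6413 at 24 h (5551), each against untreated A2780. Calls and shares for A2780CP20 therefore depend on the shared spread. The members and lists were chosen with earlier results of these data known. All members are named. From each list up to 3 called genes are named, those of largest change whose groups do not overlap, per comparison with untreated A2780, and others are marked as named after their values were seen or given as examples that did not pass. Replicate numbers are shared between groups, and deviations of same-numbered arrays correlated at 0.00202 to 0.181 across genes, too low in some pairs to pair the arrays. Alternatives were other normalizations, a filter on dim genes, other uses of probe sets, each array left out, a replicate block, fits of the groups compared and other priors.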

Additional observations from a re-analysis of the deposited data

Results flagged for a closer look

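The arrays labelled 24 h and those labelled 48 h, each set against the same untreated arrays, gave unlike differences in 3 of the 9 AP-1 genes. The test was limma's, of the 48 h group against the 24 h group, and 31.0% of all genes passed it. The count is thus near the share of all genes and is no result about the members. Whether the drug, its time or the cells on these arrays made the differences was not tested. The 48 h difference minus the 24 h difference was -2.225 for JUN, 0.765 for JUND and -0.42 for FOSB. The difference in FOSB rested on all 4 arrays of the 2 groups, as given above.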

How the results depend on the processing

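The rise of JUN at 24 h passed in all 17 alternatives run (1.99 to 2.18), as did the differences between 48 h and 24 h in JUN (-2.28 to -2.18) and JUND (0.67 to 0.87). The fall of JUND at 24 h passed in 16 of 17 and the rise of ATF3 in 14 of 16, since ATF3 is removed with the dimmest 25% of genes. FOSB between 48 h and 24 h passed in 12 of 17 and failed also with every probe set tested (adjusted p = 0.0817). When 1 array was left out, the number of members called was 0 to 1 for A2780CP20 (1, BATF3, without A2780CP20 replicate 2), 1 to 4 at 24 h (1, JUN, without temsirolimus 24 h replicate 1), 0 to 0 at 48 h and 2 to 4 for 48 h against 24 h. A lone array of a group was then assumed to vary like the other groups. With the replicate block 4 members were called at 24 h, BATF3 being added (adjusted p = 0.0475), and the block changed no other call of a member. BATF3 at 24 h was also called with quantile normalization (adjusted p = 0.0455), with median centring (0.0367) and with only the 2 groups compared (0.0131), and between 48 h and 24 h with only those groups (0.0428). Over all genes the number called ranged from 974 to 5543 in A2780CP20 (3388 as reported), 3621 to 6895 at 24 h (5551), 4 to 68 at 48 h (33) and 3715 to 7154 for 48 h against 24 h (5702).

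Directions changed only in differences that were not called. With quantile normalization these were FOSB in A2780CP20 (0.004), FOS (0.006) and FOSL1 (0.026) at 48 h, FOSL2 between 48 h and 24 h (0.007), and, for 48 h against A2780CP20, JUN (0.001), JUNB (-0.014), JUND (-0.03) and ATF3 (0.069). With median centring they were FOSB in A2780CP20 (0.005) and FOS (0.02) and FOSL1 (0.01) at 48 h. When 1 array was left out, ranges that spanned 0 were JUN (-0.12 to 0.07) and FOSB (-0.145 to 0.135) in A2780CP20, FOSL1 (-0.135 to 0.085) and FOS (-0.145 to 0.115) at 48 h, FOSL2 (-0.04 to 0.03) and JUNB (-0.225 to 0.065) between 48 h and 24 h, FOSL1 (-0.225 to 0.065) and BATF3 (-0.145 to 0.315) for 24 h against A2780CP20, BATF3 (-0.44 to 0.02) and JUNB (-0.08 to 0.21) for 48 h against A2780CP20.

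Counts of the lists in A2780CP20 moved with the setting: upstream genes higher were 0 to 4 (3 as reported) and lower 0 to 2 (1), other early response genes higher 0 to 2 (1), other early response genes lower 0 to 4 (2), responsive genes higher 1 to 2 (1) and lower 0 to 3 (3), and ligase genes lower 0 to 3 (3). At 24 h upstream genes were 1 to 2 higher (2) and 0 to 2 lower (2), other early response genes 2 to 5 higher (4) and responsive genes 6 to 8 higher (8). At 48 h other early response genes higher were 0 to 1 (1). Signal over background is not known, which limits values near or under the lower quartile, such as those of ATF3, of MMP13 and of JUN on the 6 arrays outside the 24 h group, over which its rise was taken.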
